A study of Caenorhabditis elegans with 2 samples.

Results

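The 10 genes described here encode kinases and a phosphatase of the JNK and p38 mitogen-activated protein (MAP) kinase cascades of Caenorhabditis elegans: mlk-1, jkk-1, mek-1, jnk-1, kgb-1, kgb-2, pmk-1, pmk-2, pmk-3 and vhp-1. They were taken by name from 19985 annotated protein-coding genes. Each was examined for listed binding of FOS-1, a basic leucine zipper (bZIP) transcription factor related to vertebrate Fos, in a window from 2000 bp upstream of the annotated 5' end to the 3' end of the gene. Chromatin immunoprecipitation with sequencing (ChIP-seq) mapped eGFP-tagged FOS-1 in 2 biological replicates of 1 group. The animals were whole L1 larvae (the first larval stage, mixed sex) of strain OP304, genotype unc-119(ed3) III; wgIs304. The unc-119(ed3) allele and the fos-1 transgene insertion wgIs304 were thus shared by both replicates, and there was no group of other genotype, stage or treatment. Chromatin of all tissues was mixed, so sites used in few cells may not be listed.

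In a MAP kinase cascade, an upstream kinase (MAP3K) activates a middle kinase (MAP2K), which phosphorylates and activates a terminal MAP kinase. In the worm, MLK-1 acts through MEK-1 on the JNK-like kinase KGB-1 in the response to heavy metals and in axon regeneration, while JKK-1 acts on JNK-1 in motor control. PMK-1 is the p38 kinase of innate immunity, and PMK-3 acts below DLK-1 in neurons. VHP-1 is a dual-specificity phosphatase that switches off KGB-1 and PMK-1, and FOS-1 itself is a substrate of KGB-1.

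Among these genes, vhp-1 had most of the peaks in the authors' irreproducible discovery rate (IDR) list. The IDR procedure is meant to keep peaks that rank alike in both replicates, and the authors' IDR list held 1895 peaks. These were the 1895 highest entries by signal of the pooled list, which came from both replicates together. A place in the IDR list thus does not show that a peak ranked alike in both. Of the 8 IDR peaks with a summit in the windows of the 10 genes, 6 lay in that of vhp-1 and 1 lay upstream of kgb-1. The last had its summit in the 3' UTR of pmk-3, upstream of pmk-2, and was in the windows of both. The windows of mlk-1, jkk-1, mek-1, jnk-1, kgb-2 and pmk-1 held no IDR summit. The highest vhp-1 peak had a signal of 342 and ranked 19 among all IDR peaks. Signal is the authors' own peak score, its scaling is not stated, and rank 1 is the highest signal in a list. Scores were compared within a list, and lists were compared by rank and overlap.

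The vhp-1 peaks that carry this result are shown first, since their sequence and their place inside the gene are referred to throughout. The gene lies at chrII:5323276-5340829 on the plus strand (build WBcel235, called ce11 by the authors, and gene models of Ensembl release 115). It has 8 annotated transcripts with 6 distinct 5' ends, spread over the first 15497 bp of the gene. All sequences are the plus strand of the RefSeq copy of WBcel235, written 5' to 3'. Capitals mark the AP-1 site that Fos and Jun proteins bind (TGACTCA, or TGAGTCA on the other strand) and a GA repeat (GAGAGAG, or CTCTCTC on the other strand). The whole rank-19 peak, chrII:5336899-5337185, lies in an intron:
vhp-1 rank 19: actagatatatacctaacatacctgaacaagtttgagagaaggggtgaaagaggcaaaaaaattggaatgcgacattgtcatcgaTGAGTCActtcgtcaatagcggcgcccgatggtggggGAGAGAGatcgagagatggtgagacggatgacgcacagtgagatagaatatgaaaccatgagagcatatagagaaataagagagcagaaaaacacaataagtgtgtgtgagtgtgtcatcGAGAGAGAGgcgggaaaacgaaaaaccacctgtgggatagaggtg
The 101 bp around the summits of 4 further peaks follow, at chrII:5330276-5330376 for rank 327, chrII:5326341-5326441 for rank 359, chrII:5335639-5335739 for rank 799 and chrII:5332151-5332251 for rank 1848:
vhp-1 rank 327: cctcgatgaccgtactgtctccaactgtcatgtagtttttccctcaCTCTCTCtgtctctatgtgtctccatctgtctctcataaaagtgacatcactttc
vhp-1 rank 359: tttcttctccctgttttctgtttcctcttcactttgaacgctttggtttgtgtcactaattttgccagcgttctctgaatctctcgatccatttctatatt
vhp-1 rank 799: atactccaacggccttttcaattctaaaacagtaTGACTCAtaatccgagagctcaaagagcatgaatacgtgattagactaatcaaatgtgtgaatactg
vhp-1 rank 1848: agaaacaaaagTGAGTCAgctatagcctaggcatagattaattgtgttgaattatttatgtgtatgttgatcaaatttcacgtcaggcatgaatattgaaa
The rank-19 peak held an AP-1 site 46 bp from its summit together with GA repeats. The rank-799 and rank-1848 windows each held an AP-1 site, the rank-327 window a GA repeat only, and the rank-359 window neither.

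None of the 6 vhp-1 peaks was at the 5' end of the transcript that starts farthest upstream, F08B1.1e.1. Along the gene, the rank-359 peak (signal 103) had its summit 3115 bp downstream of that 5' end. The rank-327 peak (signal 108) followed at 7050 bp, 1160 bp ahead of the start of F08B1.1a.1 and F08B1.1a.2. The rank-1848 peak (signal 43.1) lay at 8925 bp, 715 bp past the same start. The summits of these 3 peaks were all in introns of vhp-1. The rank-327 summit also lay in an exon of anr-54, an annotated antisense RNA on the minus strand.

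A denser cluster of peaks lay around the start of F08B1.1b.1. The rank-799 peak (signal 69.6, summit at 12413 bp) was 408 bp ahead of that start. The rank-1775 peak (signal 44.3, 12872 bp) was 51 bp past it, in the 5' UTR, and its interval, not its summit, overlapped the noncoding RNA F08B1.8. The rank-19 peak (13757 bp) was 936 bp past that start and 1195 bp ahead of the shared start of F08B1.1c and F08B1.1f.1. For 3 of the 6 peaks (ranks 19, 799 and 1775) the nearest 5' end of a protein-coding gene was that of F09E5.14, 7842 to 9186 bp away. The 5' end of vhp-1 as a whole is farther still, and noncoding genes were not searched for this distance. No other protein-coding gene had any of the 6 summits in its own window.

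**Figure D1:**
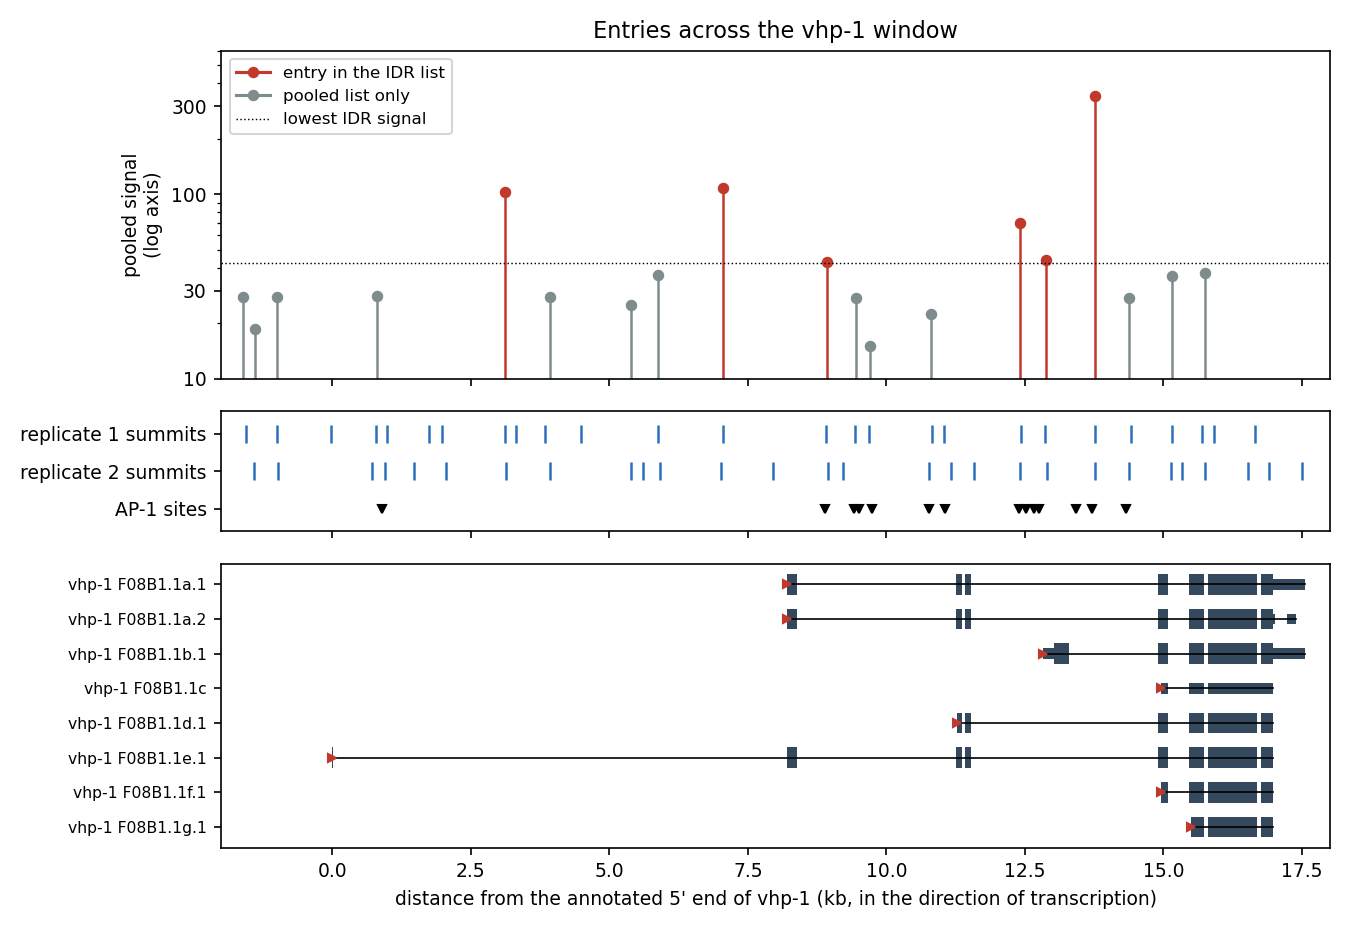
Pooled entries by signal (top, arbitrary units on a log axis), summits in each replicate list and AP-1 letters (middle), and annotated transcripts (bottom, thick bars coding exons, thin bars other exons, red arrowheads transcript starts) along the vhp-1 window, in kb from the annotated 5' end. The 6 IDR peaks with a summit in the window stand inside the gene. The highest, at 342, is between the starts of F08B1.1b.1 and F08B1.1f.1.

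Both replicates listed the vhp-1 peaks, with unequal ranks for the weakest. The rank-19 peak had a signal of 216 and rank 28 in replicate 1, and 130 and rank 17 in replicate 2. The replicate summits were 5 and 1 bp from the pooled summit. The rank-327 peak ranked 380 and 248, the rank-359 peak 486 and 403, and the rank-799 peak 637 and 865, in replicates 1 and 2 in that order. These 4 peaks were thus among the 1895 highest entries of each replicate.

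The other 2 vhp-1 peaks were among the 1895 highest entries of replicate 1 and not of replicate 2. The rank-1775 peak ranked 1074 in replicate 1 and 6725 in replicate 2. The rank-1848 peak ranked 1870 in replicate 1 and 4207 in replicate 2. All replicate summits of these 2 peaks were within 20 bp of the pooled summit. By count, the 1895 highest entries of replicate 1 had 7 summits in the vhp-1 window, and those of replicate 2 had 8. Some of these stood outside the IDR peaks, such as the entries of rank 1465 in replicate 1 and rank 1588 in replicate 2.

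Few genes had as many IDR summits as vhp-1. At least 6 were found for 8 protein-coding genes, or 0.0400% of all, of which 6 were mitochondrial. The other nuclear gene was zfp-1, a chromatin factor gene with 6 summits in a window of 16.8 kb, named after its values were seen. The vhp-1 window was wide, at 19.6 kb against a median of 4.03 kb for all protein-coding genes. Of 278 genes with a window at least that wide, 70 (25.2%) had any IDR summit and vhp-1 alone had 6 or more. A pooled signal as high as that of the top vhp-1 peak occurred in the windows of 22 genes, vhp-1 included, or 0.110% of all, of which 12 were nuclear. By signal, its neighbours in the list were the peaks nearest to F19H6.5 (343, rank 18) and tasp-1 (338, rank 20).

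**Figure D2:**
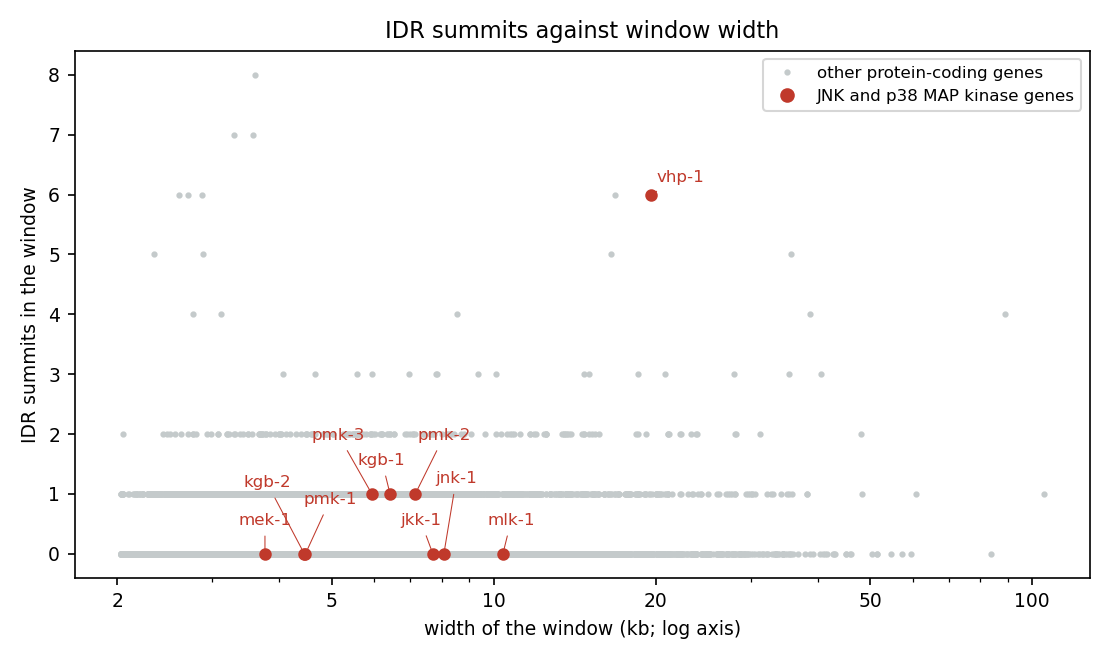
Number of IDR summits in the window of each protein-coding gene against the width of the window (kb, log axis), with the 10 JNK and p38 MAP kinase genes in red and all other genes in grey. At 6 summits, vhp-1 stands with zfp-1 among wide windows, and the other points with 6 or more are mitochondrial genes with narrow windows.

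AP-1 letters were frequent across vhp-1, also outside the IDR peaks. The window held 14 sites, 0.716 per kb, against 0.0934 per kb over the windows of all protein-coding genes. Only 2 genes, vhp-1 included, had as many. Of the 14, 11 lay inside pooled entries, which covered 32.1% of the window. The site was present in 4 of the 6 IDR intervals (66.7%), against 126 of all 1895 IDR intervals (6.65%). The 5 sites inside IDR peaks are shown with 10 bp on either side:
vhp-1 chrII:5336974-5337000, rank 19: ttgtcatcgaTGAGTCActtcgtcaat
vhp-1 chrII:5335663-5335689, rank 799: taaaacagtaTGACTCAtaatccgaga
vhp-1 chrII:5335782-5335808, rank 799: tttcaaatttTGAGTCActtttctctg
vhp-1 chrII:5336014-5336040, rank 1775: aaagctcttcTGACTCAtactctctct
vhp-1 chrII:5332152-5332178, rank 1848: gaaacaaaagTGAGTCAgctatagcct
The rank-799 peak held both forms of the letters, 13 and 106 bp from its summit. A match of these 7 letters is a description of the sequence and does not show which protein was bound there.

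Lower entries of the pooled list added to this picture without reaching the IDR list. The pooled list held 20363 entries and replicates 1 and 2 had 29801 and 23483. The vhp-1 window held 19 pooled entries, 26 of replicate 1 and 28 of replicate 2. Of the 19, 13 were outside the IDR list, with signals of 15 to 37.4 against a lowest IDR signal of 42.5. A deposited q value of 0.05 or less was reached by 10 of the 19. Of all 19, 9 held AP-1 letters in their interval, at ranks from 19 to 13802.

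KGB-1 is the JNK-like kinase that VHP-1 opposes, and its gene (chrIV:405621-410035, minus strand, 3 transcripts) had 1 IDR peak. It had a signal of 92.2 and rank 451, at chrIV:410379-410718. Replicate 1 gave it 61.5 and rank 406, and replicate 2 gave it 25.3 and rank 940, with summits 3 and 16 bp from the pooled one. The peak was therefore among the 1895 highest entries of each replicate. The summit was 514 bp upstream of kgb-1 and 318 bp upstream of T07A9.12, a gene read in the other direction whose 5' end lies 832 bp away. The data do not assign this peak to either gene. The 101 bp around the summit, chrIV:410499-410599, held a GA repeat and no AP-1 letters:
kgb-1 rank 451: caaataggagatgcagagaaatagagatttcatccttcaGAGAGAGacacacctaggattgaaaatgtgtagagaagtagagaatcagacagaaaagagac
The peaks next to it in signal were nearest to W04A4.6 (92.3, rank 450) and lgg-2 (92.1, rank 452).

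A lower kgb-1 entry lay inside the gene and did hold AP-1 letters. It was in the intron ahead of the start of transcript T07A9.3.3 (summit 832 bp downstream of the gene's 5' end and 305 bp upstream of that start). The summit was also in the window of T07A9.12. Its signal was 29.6, its pooled rank 3352 and its replicate ranks 3592 and 12448. The letters stood 66 bp from the summit:
kgb-1 chrIV:409124-409150, rank 3352: tcatcaaaacTGAGTCAtttcaaccca
The third pooled entry, 1823 bp upstream, had a signal of 17.5 and was matched in replicate 1 only. The paralog kgb-2 (chrIV:3606784-3609229, plus strand) had 1 pooled entry, with a signal of 13.0 and rank 18791. It lay 279 bp upstream of kgb-2 and 39 bp from the 5' end of Y37E11B.10. Replicate 1 listed no entry for kgb-2 and replicate 2 listed 1, of rank 20453. Thus kgb-2 was near the bottom of the lists and kgb-1 was not.

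The p38 genes pmk-3, pmk-2 and pmk-1 lie in this order on the plus strand of chromosome IV and are known as an operon, so the promoter ahead of pmk-3 can serve all 3. The gap from pmk-3 to pmk-2 was 345 bp and that from pmk-2 to pmk-1 was 145 bp. The IDR peak shared by pmk-3 and pmk-2 (signal 51.4, rank 1367) had its summit in the 3' UTR of pmk-3, 384 bp upstream of pmk-2. It ranked 825 in replicate 1, with a signal of 43.6, and 8573 in replicate 2, with 9.04. Both replicate summits were 3 bp from the pooled one, so the place was the same and the rank was not. No AP-1 letters lay within 50 bp of its summit. The peaks beside it in signal were nearest to Y37D8A.16 (51.5, rank 1366) and cutl-28 (51.4, rank 1368).

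The entry at the start of the operon fell just below the IDR list. Its summit was 29 bp upstream of pmk-3, at chrIV:8139020-8139359. With a signal of 38.9 and rank 2183 it was the highest pooled entry of the 10 genes outside the IDR list, and the lowest inside had 43.1. It ranked 1945 in replicate 1 and 4473 in replicate 2, whose summits were 73 bp upstream and 101 bp downstream of the pmk-3 5' end. The pooled interval also covers the 3' end of islo-1, the gene ahead of pmk-3 on the same strand. The islo-1 transcript ends at -127 bp from the pmk-3 5' end. AP-1 letters stood 45 bp from the pooled summit:
pmk-3 chrIV:8139132-8139158, rank 2183: caatcgctgcTGACTCAtatctgattg
This was the only one of the 32 pooled entries outside vhp-1 with AP-1 letters within 50 bp of its summit. Other entries of pmk-3 and pmk-2 had signals of 12.7 to 27. PMK-1 is the p38 kinase of immunity, and its gene (chrIV:8148794-8151266) had 1 pooled entry, of signal 12.7 and rank 19773, inside pmk-2 and 1478 bp upstream of pmk-1. In the lists of replicates 1 and 2, pmk-1 had 3 and 2 entries, the highest at rank 9038 and 11309.

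**Figure D3:**
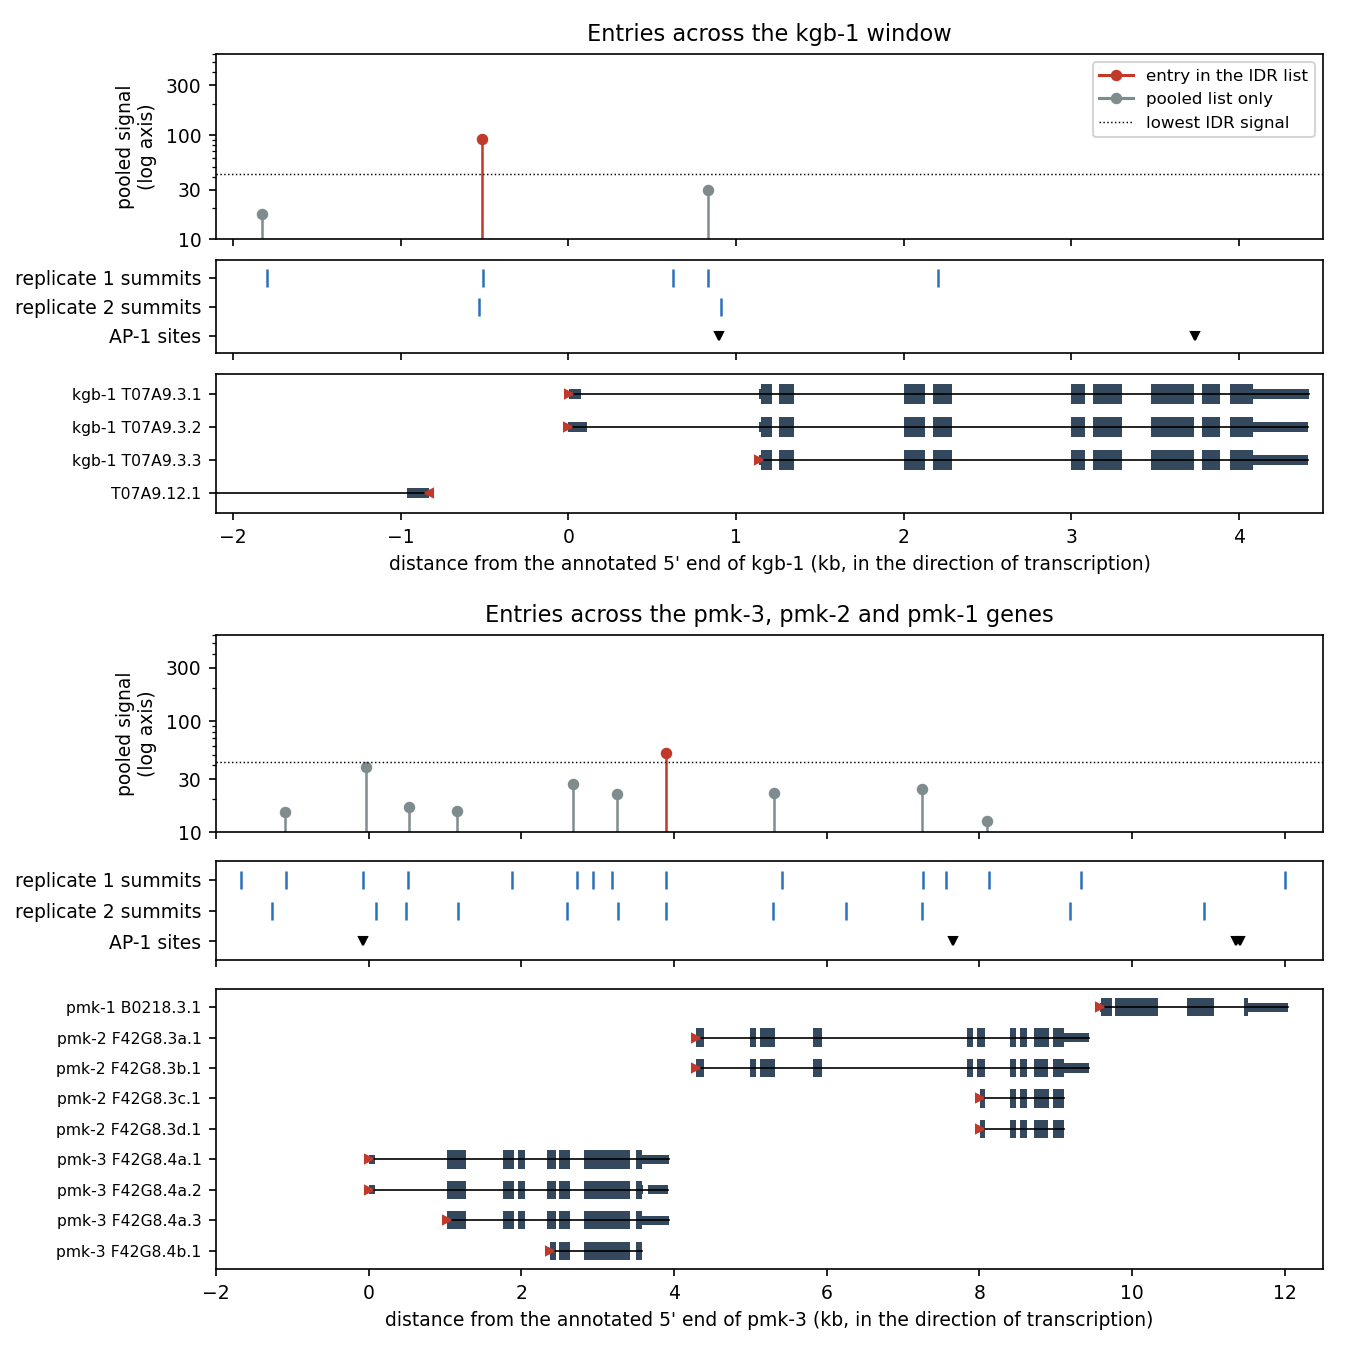
Pooled entries by signal (arbitrary units, log axis), replicate summits, AP-1 letters and transcripts along kgb-1 (upper set) and along pmk-3, pmk-2 and pmk-1 (lower set), in kb from the annotated 5' end of kgb-1 or pmk-3. The kgb-1 peak, at 92.2, lies between the diverging starts of kgb-1 and T07A9.12, and the peak at 51.4 lies ahead of pmk-2. The neighbouring gene islo-1 is not drawn.

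The upstream kinases of the KGB-1 and JNK-1 branches had no IDR summit in their windows. MEK-1, the MAP2K of KGB-1, is encoded at chrX:7479248-7481005 (plus strand). Its gene had 2 pooled entries, both upstream, with signals of 28.3 (rank 3600, 1657 bp) and 28.1 (rank 3644, 645 bp). The first ranked 7915 and 2285 in replicates 1 and 2 and the second 3655 and 6599. Both had a pooled q value under 0.05, as had no pooled entry of mlk-1, jnk-1, jkk-1, kgb-2 or pmk-1. An IDR peak of signal 76.0 and rank 665 (822 and 535 in replicates 1 and 2) lay farther out, 4039 bp upstream of mek-1. It was nearest to coh-1, a cohesin subunit gene, at 191 bp, and outside the window used.

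MLK-1, the MAP3K above MEK-1, is encoded at chrV:5056378-5064811 (minus strand), and mlk-1 had 5 pooled entries with signals of 13.5 to 17.7. Those 218 and 491 bp upstream matched the same entry of replicate 1, which had a signal of 23.9 and rank 2411, 363 bp upstream. In replicate 2 the matching entries ranked 4952 and 22057. The promoter of mlk-1 thus ranked higher in replicate 1 than any of its entries did in the pooled list.

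JKK-1, the MAP2K of JNK-1, is encoded at chrX:5368468-5374174 (plus strand). Its gene had 3 pooled entries, the highest with a signal of 16.6 and rank 11020 in the 5' UTR, 28 bp from the 5' end. The gene of its target JNK-1 (chrIV:6957641-6963719, plus strand) had 8 pooled entries. The highest had a signal of 24.9 and rank 4553 and lay 934 bp upstream, with replicate ranks of 4000 and 10708. The next, with 21.0, was in an intron 556 bp ahead of the start of transcript B0478.1b.1. The window of jnk-1 held no AP-1 letters, and that of jkk-1 held 1, outside the pooled entries.

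**Figure D4:**
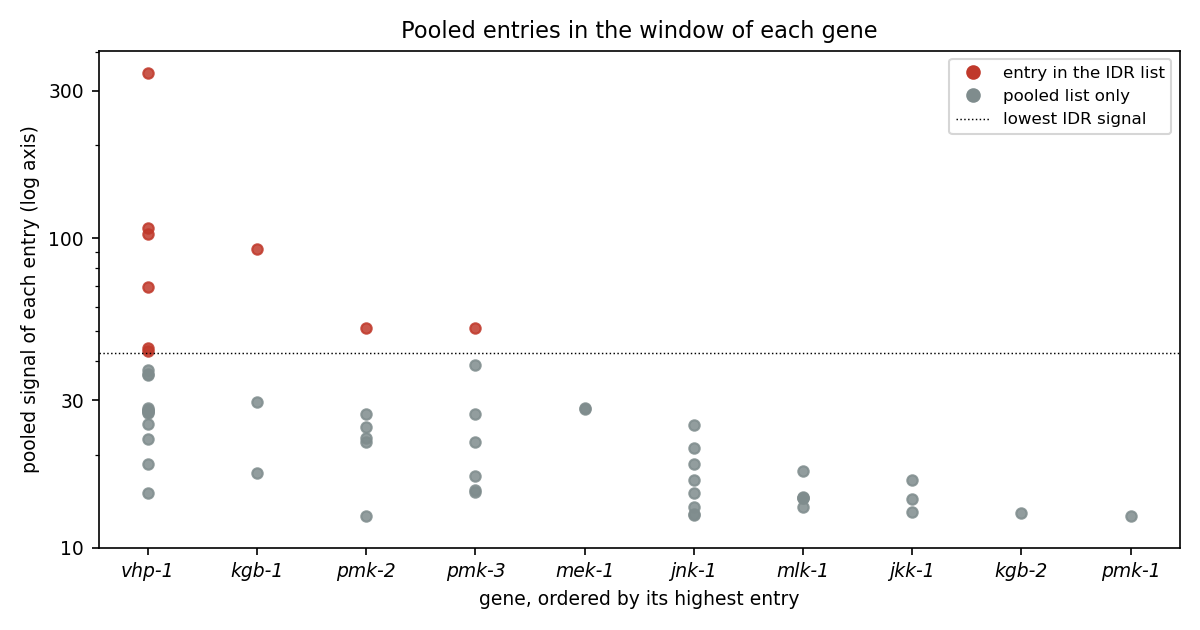
Signal of each pooled entry in the windows of the 10 genes (arbitrary units, log axis), with IDR peaks in red and the lowest IDR signal as a dotted line. Only vhp-1, kgb-1, pmk-2 and pmk-3 reach above the line at 42.5, and pmk-2 and pmk-3 share 1 peak.

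Beside all protein-coding genes, the share of the 10 genes with an IDR summit was larger, on a small count. An IDR summit was in the window of 4 of 10 (40%, 95% Clopper-Pearson interval 12.2 to 73.8) and of 11.3% of all genes. These summits stood in 3 separate places, as pmk-2 and pmk-3 share theirs. Within 1000 bp upstream to 200 bp downstream of the 5' end, 2 of 10 genes, kgb-1 and pmk-2, had an IDR summit, against 7.65% of all. The 1895 highest entries of replicate 1 marked the same 4 of 10 genes, against 11.0% of all. Those of replicate 2 marked 2 of 10, kgb-1 and vhp-1, against 11.0%. The wide intervals of such counts leave the size of any difference uncertain, and they cover counting error only. They treat the 10 genes as independent draws, although pmk-2 and pmk-3 share a peak. The genes were also chosen with earlier results of these data known.

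Weak entries were found at nearly every gene of the 10. The pooled list had an entry for 10 of 10, against 53.5% of all genes, replicate 1 for 9 of 10, against 64.6%, and replicate 2 for 10 of 10, against 61.1%. The windows of the 10 genes were also wider, with a median of 6.78 kb (range 3.76 to 19.6) against 4.03 kb, and a wide window holds more entries. Per kb of window the 10 genes had a mean of 0.706 pooled entries, and 0.616 without vhp-1, against 0.205 for all genes. In these means an entry counted once for every gene window that held it, and 4 pooled entries lay in more than 1 of the 10 windows. For IDR summits the mean without vhp-1 was 0.0514 per kb, against 0.0241. It rested on a pair of peaks, of which that shared by pmk-2 and pmk-3 was counted for both genes.

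Counted once each, the pooled entries in the 10 windows numbered 51. Their summits were in introns for 29, upstream of the genes for 14, in coding exons for 4, in 5' UTRs for 2, in a 3' UTR for 1 and in a noncoding exon for 1. Of the 51, 38 (74.5%) were matched by overlap in both replicates, against 51.0% of all pooled entries. Outside the IDR list these shares were 30 of 43 (69.8%) and 46.0%. A q value of 0.05 or less was given to 16 of the 51 (31.4%), against 18.1% of all pooled entries.

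Of the 8 IDR peaks, 8 were among the 1895 highest entries of replicate 1 and 5 among those of replicate 2. For all IDR peaks these shares were 86.8% and 79.5%. The 3 peaks missing from the top of replicate 2 were those shared by pmk-2 and pmk-3 and the vhp-1 peaks of ranks 1775 and 1848. The gene counts that rest on replicate 1 are thus those of pmk-2 and pmk-3, while kgb-1 and vhp-1 were marked in each replicate.

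**Figure D5:**
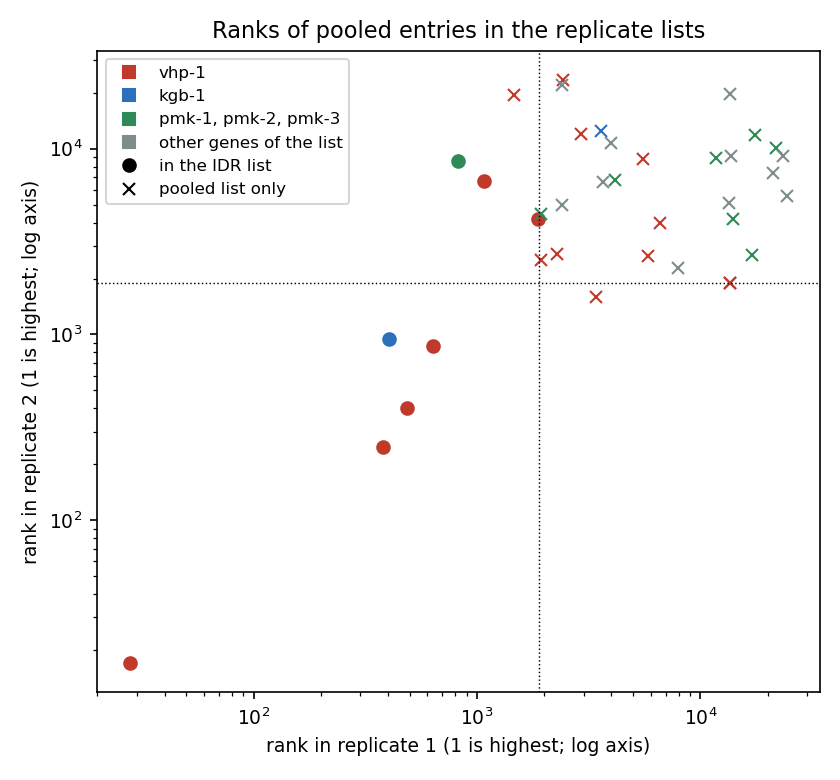
Ranks in replicate 1 and replicate 2 (log axes, 1 is the highest signal) of the pooled entries in the 10 windows that overlapped an entry in both replicate lists, with IDR peaks as circles and dotted lines at rank 1895. The 5 circles inside both lines belong to vhp-1 and kgb-1, and the pmk circle lies at 825 and 8573.

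Within 50 bp of the summit, AP-1 letters were present in 7 of the 51 pooled entries (13.7%), against 1.93% of all pooled entries, and in 3 of the 8 IDR peaks (37.5%), against 3.80%. Of the 7, 6 were in vhp-1, where 6 of 19 entries (31.6%) had them. In the other 9 genes 1 of 32 had them (3.12%). The windows of mek-1 and pmk-1 held 3 AP-1 sites each, or 0.798 and 0.671 per kb, near the vhp-1 density of 0.716. None (0) of these lay inside a pooled entry. Pooled entries covered 18.1% of the mek-1 window and 9.48% of the pmk-1 window, against 32.1% for vhp-1. With 3 sites each, these counts are too small for a contrast with vhp-1. A scrambled form (TCACTGA or TCAGTGA) was found in 4 of 51 (7.84%), against 1.69%, and in 0 of the 8 IDR peaks. The GA repeat was found in 5 of 51 (9.80%), against 5.28%, and in 3 of 8 IDR peaks (37.5%), against 16.2%. TGACGTCA, the cAMP-response element, and CACGTG, the E-box, were within 50 bp of none of the 51 summits (0), against 0.638% and 2.33% of all. Neighbouring entries overlap and share sequence, and no test was made of these shares.

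Other genes of the same pathways also carried IDR summits. An IDR summit lay in the window of 12 of 28 further JNK and p38 pathway genes (42.9%, median window 9.19 kb), against 11.3% of all protein-coding genes (median window 4.03 kb). In the promoter window it was 4 of 28, against 7.65%. The 28 genes, with cebp-1 and jun-1 among them, were chosen with earlier results of these data known. The top entries of replicates 1 and 2 marked 12 and 13. Upstream kinases among them were the MAP3K gene dlk-1 (53.2, 888 bp downstream of its 5' end) and the MAP2K genes sek-1 (64.8, 1904 bp upstream, in a window shared with R03G5.6) and mkk-4 (49.7, 1170 bp upstream). The dlk-1 and mkk-4 peaks ranked 1175 and 656 in replicate 1 and 6892 and 12565 in replicate 2, so both were far lower in the replicate 2 list. The sek-1 peak ranked 802 and 1452. The MAP2K genes sek-3, sek-4, sek-5 and sek-6 had no IDR summit (0).

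Scaffolds and adaptors were marked at unc-16 (93.3, 111 bp upstream), the gene of a JNK scaffold in axonal transport, and at shc-1 (103, in its 5' UTR), the gene of an adaptor of JNK signalling. The peak of tir-1, which acts upstream of the PMK-1 cascade, had a signal of 76.6 and was in the 3' UTR of that wide gene and nearest to rpl-3. Of the downstream kinase genes, mak-2 had a peak of 75.9, 458 bp upstream, and mnk-1 had 2 IDR summits, the higher with 142 and rank 175 in an intron. Among transcription factors of these pathways, peaks were in the windows of cebp-1 (688, rank 2, 742 bp upstream), jun-1 (378, rank 8, 86 bp upstream), skn-1 (62.3, intron) and daf-16 (84.3, intron), while atf-7, the factor phosphorylated by PMK-1, had no IDR summit and 8 pooled entries. The cebp-1 and jun-1 peaks were both above the highest vhp-1 peak (342, rank 19), and the jun-1 window held 2 IDR summits and 19 pooled entries. No IDR summit (0) was in the windows of the scaffold gene jip-1 or of max-2, svh-1 and svh-2, listed with the adaptors. The same held for the downstream kinase gene mak-1 and for fos-1 and kreg-1, listed with the transcription factors and targets.

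The ERK and other MAP kinase modules had IDR summits at 2 of 13 genes (15.4%, median window 8.04 kb), against 11.3% of all protein-coding genes, a share near that of all genes. These were mpk-1, the ERK gene (119, rank 263, intron), and mpk-2 (92.0, rank 454, intron, in a window shared with C04G6.11). The ERK phosphatase gene lip-1 had 2 pooled entries and no IDR summit in a window of 5.05 kb. The vhp-1 window, with 19 and 6, was far wider, at 19.6 kb, so these counts are not on an equal footing. The top entries of replicates 1 and 2 marked 2 and 4 of the 13. No test of the difference between these lists was made.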

How the data were processed

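The files were peak lists in narrowPeak format for 2 biological replicates of 1 group, and the 4 lists in build ce11 were used. Per the deposited text files, a replicate list came from the alignments of 1 replicate with a control, the pooled list from those of both, and the IDR list from these 3 lists. The sources used here do not name the aligner, caller, IDR threshold or duplicate filter. The deposited signal (column 7) is the authors' own, of unstated scaling, and ranked the entries. The deposited −log10 q value (column 9) was capped at 3.63 in the pooled list, so it did not rank IDR peaks. The IDR list was the 1895 highest entries of the pooled list. Read depth is unknown, so an entry not listed does not show absence of binding. Both replicates shared a control file, per the deposited text files.

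Entries were placed by summit (the start plus column 10) in windows on WBcel235 with Ensembl release 115 genes. Overlap meant at least 1 bp, and the replicate rank of an entry is that of the overlapping entry with the nearest summit. Motif searches covered both strands and 50 bp on each side of a summit. For each replicate alone, its 1895 highest entries stood in for the IDR list. Placement, motif search and overlap were tested on simulated data, and overlaps were checked against bedtools 2.31.1. Python 3.11.15, numpy 2.4.6, scipy 1.17.1 and matplotlib 3.10.9 were used. With 1 group and no control group, no test was made. All 10 genes are named, with genes sharing or nearest to their IDR peaks, the genes nearest to the peaks next in signal, and the pathway genes with an IDR summit. Others were named after their values were seen, namely zfp-1, coh-1, anr-54, F08B1.8, atf-7, lip-1 and the genes near entries outside the IDR list. So were the other pathway genes without an IDR summit. The genes and lists were chosen with earlier results of these data known.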

Additional observations from a re-analysis of the deposited data

How the results depend on the processing

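The count of 4 genes with an IDR summit was 4 with a window from 1000 bp upstream (9.16% of all protein-coding genes) and when the interval replaced the summit (12%), and 5 with 5000 bp (16.1%), where mek-1 joined through the peak nearest coh-1. It fell to 2 in the promoter window (kgb-1 and pmk-2; 7.65% of all genes) and to 2 in the 947 IDR peaks of higher signal (kgb-1 and vhp-1), where 6.16% of all protein-coding genes were marked. Leaving out a replicate gave 2 to 4, the 2 without replicate 1. In the promoter window alone, 4 of 28 pathway genes, 0 of 13 genes of other modules and 0 vhp-1 summits were left. That window was set by the 5' end of the gene as a whole, so starts of inner transcripts were not counted. The vhp-1 summits 408 bp ahead of and 51 bp past the start of F08B1.1b.1 therefore fell outside it. Leaving out a replicate gave 2 to 4 for the other modules. AP-1 letters were in 1 pooled entry within 25 bp of the summit and in 12 over the whole interval, against 7 within 50 bp. The cause was not tested. The other 37 of 47 alternative values were within 1.5 times of those reported. Among them, the vhp-1 window had 7 IDR peaks when the interval replaced the summit, against 6. A further IDR peak thus overlapped that window with its summit outside it. Alternatives for vhp-1 and the other modules were chosen after seeing the data. No paired analysis was possible because both replicates form 1 group.

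Read depth is unknown and both replicates shared a control file. With 2 replicates of 1 strain, binding cannot be compared with another genotype, and signal of the lists could not be placed on 1 scale. Whole larvae do not show which cells carried a peak. Windows overlap between neighbouring genes, and a summit inside a gene or between 2 genes does not show which gene it acts on.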
